A study of Mus musculus with 4 samples.

Results

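The genes described here carry out or control fatty acid oxidation and ketone body synthesis in liver, the process by which hepatocytes burn fatty acids. They were a set of 37 genes named by role, and each was read from the probe set paired with its symbol alone in the platform annotation. Among several such probe sets of a gene, the brightest on average was kept. Of the 37 genes 36 were measured, out of 22180 genes with such a probe set, and all 36 passed the filter on dim genes that left 12458 genes for testing. The acyl-CoA synthetase Acsl1 was not analysed here. Of the measured genes, 4 act in uptake and activation, 4 in the carnitine shuttle, 15 in mitochondrial beta-oxidation, 6 in peroxisomal oxidation and 1 in ketone body synthesis, and 6 are regulators and their targets.

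Livers came from male mice, either wild type (WT) or lacking Nrg4 (knockout, KO), the gene of the secreted growth factor neuregulin 4. Mice of both genotypes began a diet that causes steatohepatitis (the NASH diet, Research Diets D09100301) at 3 months of age and stayed on it for 20 weeks, and tissue was taken in the fed state. RNA was pooled before hybridisation to Mouse Gene ST 2.1 arrays, with 2 pools and so 2 arrays per genotype. The sources used here give neither the knockout allele nor how many animals made up a pool, so p-values measure only the spread between pools, and no animal on another diet was compared. Values are the deposited log2 levels, whose zero point is unknown, and a difference is KO minus WT on that scale. Levels of different genes come from different probes and were not compared. Nrg4 itself read 2.54 and 2.30 in WT and 0.93 in both KO pools (difference -1.49 ± 0.20 SE; limma, adjusted p = 0.181).

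Long-chain fatty acids enter hepatocytes with the help of membrane transporters, are joined to coenzyme A, and cross into mitochondria as carnitine esters. Beta-oxidation then removes acetyl units in repeated rounds of dehydrogenation, hydration, a second dehydrogenation and thiolysis, and part of the acetyl-CoA becomes ketone bodies. Peroxisomes shorten fatty acids too long for mitochondria and oxidise dicarboxylic acids. The nuclear receptor PPAR-alpha, bound to DNA together with RXR, activates many of these genes, most strongly in fasting.

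Most fatty acid oxidation genes were slightly lower in the KO livers, and none passed the test across all genes. Of the 36, 30 differed by less than 0 and 6 by more, with a median of -0.18 and a range from -0.65 for Ehhadh to 0.13 for Cd36. In bulk RNA, fewer hepatocytes and less of a transcript in each hepatocyte cannot be told apart. The median over all 12458 genes tested was 0.01, and 48.4% of them were below 0. No member passed limma at an adjusted p under 0.05, where 6 of all genes did (0.0482%, with 0.0241% lower and 0.0241% higher), and the adjusted p of the members lay between 0.366 and 0.982. At an unadjusted p under 0.05 there was 1 member, Ehhadh, lower in KO, against 3.92% of all genes in that direction, 6.37% in the other and 10.3% in both. A second limma fit let the prior variance follow a gene's brightness (the trended fit). It called Ehhadh (adjusted p = 0.0176), where it called 0.698% of all genes as lower, and 9 members were lower at an unadjusted p under 0.05, against a background of 5.80%. No member was higher at that p, against 6.38% of all genes. Of the 13 tested hepatocyte markers described below, 6 were lower and 0 higher at the same p in the trended fit. The share among bright genes alone was not computed.

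Both KO pools lay below both WT pools in 22 of 36 members (61.1%), against 19.5% of all genes tested, and above them in 4, against 22.2%. An exact permutation of 2 pools against 2 cannot give a two-sided p under 0.333. Bright genes as a whole were lower in the KO livers, and 32 of the members were among the 1310 genes with a mean of 5 or more, a limit chosen after the data were seen. In those 1310 genes the median was -0.09, 66.4% were below 0 and 41.1% had both KO pools below both WT pools. In the 32 members the median was -0.16, 26 were below 0 (81.2%) and 19 had both KO pools below both WT pools (59.4%). When the arrays were quantile normalized once more, the medians were 0.00 for the bright genes and -0.09 for the 32 members. Below 0 were then 50.9% of the bright genes and 22 of the 32 members (68.8%). With arrays centred on their medians instead, 73.3% of the bright genes and 28 of the 32 members were below 0.

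**Figure D1:**
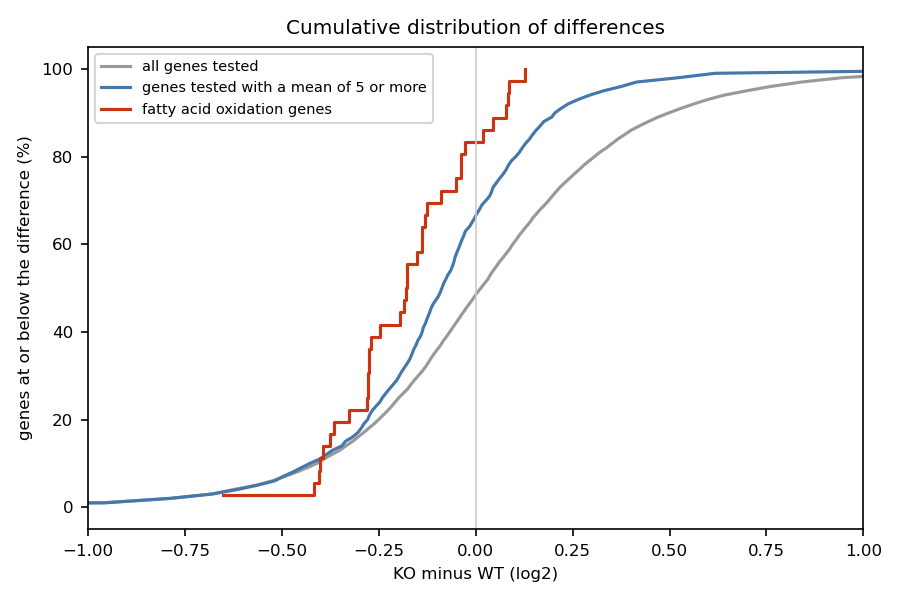
Cumulative share of genes (vertical axis, percent) at or below a given KO minus WT difference (horizontal axis, log2), for all 12458 genes tested, for the 1310 with a mean of 5 or more and for the 36 fatty acid oxidation genes. The curve of the fatty acid oxidation genes crosses the middle at -0.18, that of bright genes at -0.09 and that of all genes at 0.01.

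Cell type markers differed between the same pools. The livers had strong hepatocyte signal, with albumin (Alb) between 10.7 and 10.9 in the 4 pools. Of 13 measured hepatocyte markers 10 were lower in KO (76.9%), with a median of -0.15, against 66.4% of genes with a mean of 5 or more. The 3 higher ones were Ttr at 0.17, Apoa1 at 0.05 and Ahsg at 0.01. Serpinc1 (-0.004) and Fgb (-0.05) were among the lower ones and differed little. Relative to WT, KO pools 1 and 2 had a list mean of -0.21 and -0.17 for hepatocyte markers and of -0.21 and -0.16 for the fatty acid oxidation genes. The hepatocyte mean includes Ass1, read by a dim probe set at 1.65 and 2.74 in WT and 1.56 and 1.83 in KO. Relative to WT its KO pools lay at -0.63 and -0.36, further down than the list mean. Of 12 macrophage markers 11 were higher (median 0.37, KO pool means of 0.43 and 0.34 above WT), and of 11 stellate cell and fibroblast markers 9 were higher (median 0.68, KO pool means of 0.56 and 0.62 above WT). Of 5 tested cholangiocyte markers 4 were higher (median 0.71). One of these, Krt7, lay at -0.04 from the table median in WT and at 0.36 in KO. It passed the filter on dim genes only through KO, so its direction is no evidence. The duct keratin Krt19 lay close to the table median in all pools. The 9 endothelial markers had a median of 0.09, 5 T and NK cell markers -0.02 and 6 adipocyte markers -0.39. Of the T and NK list, Cd8a passed the filter only through KO and Cd4 only through WT. Lep of the adipocyte list also passed only through WT. The 3 tested B and plasma cell markers had a median of 0.52, 3 muscle markers 0.13 and the 1 erythroid marker -0.07. Several markers of these small lists lay near the table median of 0.54, among them Cd79a, Cd79b, Ckm, Lep and the erythroid marker Slc4a1. Such medians rest partly on dim probe sets and say little about cell types. None of the 5 neutrophil markers passed the filter on dim genes. No marker of these lists passed limma over all genes. The trended fit called 4 markers, where it called 1.09% of all genes tested. Lower were the hepatocyte enzymes Hpd (-0.50) and Cps1 (-0.39) and the macrophage receptor Marco (-2.37), and higher was the fibroblast receptor Pdgfra (1.67). The part of these cell types in the lower fatty acid oxidation genes was not tested.

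**Figure D2:**
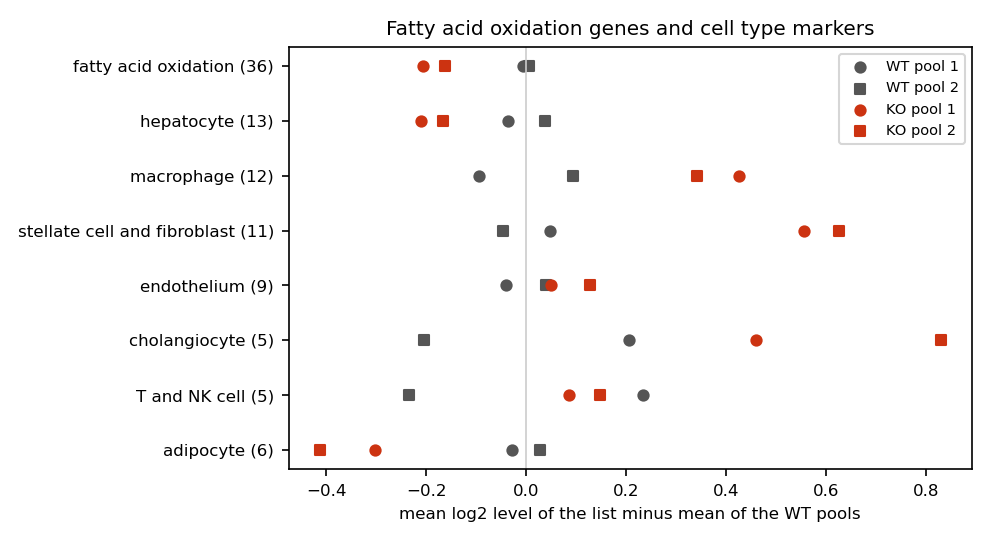
Mean log2 level of each list minus its mean over the WT pools (horizontal axis), for the fatty acid oxidation genes and for cell type marker lists, with the number of tested genes in brackets. Points are single pools. In KO pools 1 and 2 the fatty acid oxidation genes sit at -0.21 and -0.16 and the hepatocyte markers at -0.21 and -0.17. The hepatocyte mean includes the dim probe set of Ass1.

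Of 4 genes of fatty acid uptake, binding and activation 3 were below 0 and 1 above, with a median of -0.18. That median was -0.11 without KO pool 1 or WT pool 1, -0.24 without WT pool 2, -0.25 without KO pool 2 and -0.09 with the mean of a gene's probe sets. Fabp1, the liver fatty acid-binding protein that carries fatty acids through the cytosol, read 9.12 and 9.03 in WT and 8.68 and 8.72 in KO. Both KO pools lay below both WT pools, and the difference was -0.38 ± 0.19 (SE; limma, adjusted p = 0.578), a KO level at 77.1% of WT. In the trended fit the interval of that difference was -0.56 to -0.19 (adjusted p = 0.0757). Slc27a2, a very long-chain acyl-CoA synthetase and fatty acid transporter, read 9.52 and 9.49 in WT and 9.28 and 9.37 in KO. Its pools did not overlap either, at a smaller difference of -0.18 ± 0.19, which was -0.01 with the mean of its probe sets. The other probe set of Slc27a2 was dim, with a mean of 1.19 and a difference of 0.15. Acsl5, a long-chain acyl-CoA synthetase, read 7.13 and 6.91 in WT and 6.75 and 6.94 in KO, so the groups overlapped. Cd36, a fatty acid receptor of the plasma membrane that macrophages and endothelium express too, had the highest difference of all members. It read 8.27 and 8.09 in WT and 8.33 and 8.29 in KO, a difference of 0.13 ± 0.19, and KO pool 2 lay just above WT pool 1. Without WT pool 2 its difference was 0.03, below that of Bdh1 at 0.12 and Hadh at 0.07.

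Promoter sequence bears on the members because PPAR-alpha with RXR binds a pair of AGGTCA half-sites that run in the same direction with 1 base between them. RefSeq promoter windows (GRCm38.p6, 250 bases before to 50 after each start) were matched by symbol for 31 of the 37 members. Allowing 2 mismatches over both half-sites and either strand, 6 of these 31 members held such a pair (19.4%), against 370 of 9803 genes tested on the arrays that have a window (3.77%) and 1268 of all 32851 windows (3.86%). The 6 were Fabp1, Etfa, Echs1, Slc25a20, Creb3l3 and Cd36, and Fabp1 had the closest match, with 1 mismatch, starting at position -67 from the start. Differences of these 6 genes ran from -0.38 for Fabp1 to 0.13 for Cd36. A match describes letters only and does not tell which nuclear receptor, if any, binds there. A window without a match says nothing about binding elsewhere. The share was not compared with that of other liver-expressed genes. The 250 bases before the start are shown for Fabp1, which holds the closest match, for Etfa, a beta-oxidation gene with a match, and for Ehhadh, the member with the largest difference, which holds none. Each is given 5′ to 3′ in the direction of the gene, with the matched pair in capitals. In Fabp1 and Etfa the pair lies on the opposite strand and so reads as the reverse complement. The stretches shown lie at chr6:71199629-71199878, plus strand (Fabp1), chr9:55512244-55512493, minus strand (Etfa) and chr16:21787835-21788084, minus strand (Ehhadh).
Fabp1: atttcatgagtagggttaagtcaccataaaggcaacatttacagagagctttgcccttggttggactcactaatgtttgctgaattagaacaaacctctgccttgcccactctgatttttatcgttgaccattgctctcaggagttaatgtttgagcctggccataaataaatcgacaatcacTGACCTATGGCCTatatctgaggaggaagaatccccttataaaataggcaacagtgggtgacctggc
Etfa: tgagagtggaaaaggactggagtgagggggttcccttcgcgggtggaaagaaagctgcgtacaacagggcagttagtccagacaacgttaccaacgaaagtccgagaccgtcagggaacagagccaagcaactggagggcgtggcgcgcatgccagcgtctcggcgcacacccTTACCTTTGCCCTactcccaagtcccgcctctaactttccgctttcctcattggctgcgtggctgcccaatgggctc
Ehhadh: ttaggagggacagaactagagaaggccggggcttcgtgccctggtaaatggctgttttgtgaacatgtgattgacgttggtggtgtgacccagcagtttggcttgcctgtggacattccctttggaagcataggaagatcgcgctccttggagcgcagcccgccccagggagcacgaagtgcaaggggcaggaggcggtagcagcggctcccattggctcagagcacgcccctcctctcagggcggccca

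In the carnitine shuttle Cpt2 and Slc25a20 of the inner membrane had lower levels in both KO pools, and the levels of Cpt1a and Crat overlapped. Cpt1a, the carnitine palmitoyltransferase of the outer membrane that sets the rate of entry, read 8.57 and 8.59 in WT and 8.47 and 8.61 in KO. The groups overlapped, and its difference of -0.04 ± 0.19 had a 95% interval from -0.51 to 0.43. Slc25a20, the carrier that exchanges acylcarnitine for carnitine, read 6.84 and 6.92 in WT and 6.58 and 6.62 in KO, without overlap (-0.28 ± 0.19). Cpt2, which returns the acyl group to coenzyme A inside the mitochondrion, read 7.04 and 7.02 in WT and 6.61 and 6.65 in KO. The gap between the Cpt2 groups was wide beside the spread of the pools, yet the gene did not pass (-0.40 ± 0.19; limma, adjusted p = 0.551, or 0.179 in the trended fit). Crat, the carnitine acetyltransferase, overlapped between groups because KO pool 1 read 5.79 and KO pool 2 read 6.35. The difference between Cpt2 and Cpt1a was not itself tested.

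Of the 15 genes of mitochondrial beta-oxidation 13 were below 0, with a median of -0.19, and none passed the test. Both KO pools were below both WT pools in 12 of 15 (80.0%), against 19.5% of all genes tested and 41.1% of bright ones. The 12 and the 13 include Hadhb, whose mean of 0.91 places it outside the bright genes. Among the acyl-CoA dehydrogenases, which begin each round, the difference was -0.27 for the very long-chain enzyme Acadvl and -0.13 for the long-chain enzyme Acadl. It was -0.03 for the medium-chain enzyme Acadm and 0.04 for the short-chain enzyme Acads, and the pools overlapped in the last pair. The SE of these differences was 0.19 to 0.20, so the 4 enzymes were not distinguished from each other or from 0. Electrons from these enzymes pass to the flavoprotein made of Etfa and Etfb and on to its dehydrogenase Etfdh. Etfa read 7.78 and 7.80 in WT and 7.53 and 7.50 in KO, a difference of -0.28 ± 0.19 with no overlap. Etfb differed by -0.28, or -0.16 without WT pool 2, and Etfdh by -0.14, both without overlap.

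Among the enzymes of the later steps, Acaa2, the thiolase that releases acetyl-CoA, read 8.64 and 8.65 in WT and 8.40 and 8.35 in KO (-0.27 ± 0.19). Its WT pools were almost equal and both KO pools were lower. Hadha, the alpha subunit of the trifunctional protein, differed by -0.19 and the hydratase Echs1 by -0.15, both without overlap. The isomerases and reductase that handle unsaturated fatty acids differed by -0.25 (Eci1), -0.33 (Eci2) and -0.13 (Decr1). Eci1 was at -0.06 without KO pool 2 and Eci2 at -0.16 without KO pool 1, so 1 pool carried much of each. Hadh, the short-chain hydroxyacyl-CoA dehydrogenase, read 9.15 and 9.12 in WT and 9.17 and 9.28 in KO (0.08 ± 0.19). Hadhb, the beta subunit of the trifunctional protein, was read by a probe set near the low end of the scale, at 0.86 and 1.38 in WT and 0.62 and 0.81 in KO. Its difference of -0.40 ± 0.25 was -0.14 without WT pool 2, and no fold is given at such levels.

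**Figure D3:**
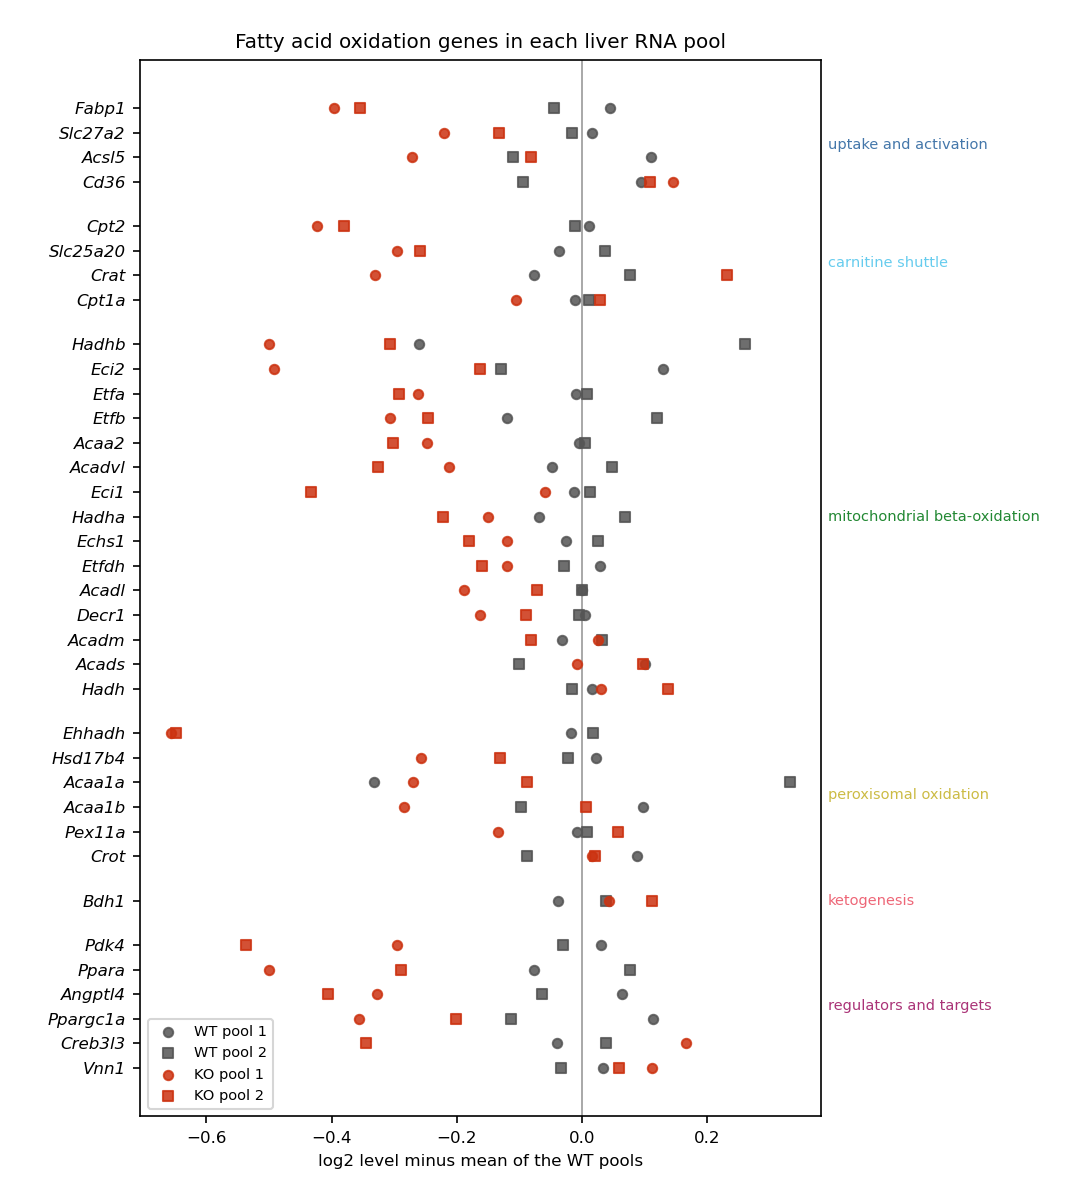
Log2 level of each gene in each pool minus the mean of the WT pools (horizontal axis), with genes grouped by role. Grey points are WT pools and red points KO pools. Both KO pools of Ehhadh lie near -0.65, and in 22 of 36 genes both red points lie to the left of both grey ones.

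Peroxisomal oxidation held the largest difference of the set. Ehhadh, the L-bifunctional enzyme that hydrates and dehydrogenates chain-shortened and dicarboxylic acyl-CoAs in peroxisomes and a well-known PPAR-alpha target, read 8.01 and 8.05 in WT and 7.37 and 7.38 in KO. The pools of each genotype agreed closely, and the KO level was 63.6% of WT. The difference was -0.65 ± 0.19 (SE; 95% interval -1.11 to -0.19; limma, adjusted p = 0.366). In the trended fit the interval was -0.87 to -0.43 and the adjusted p 0.0176, and without any 1 pool the difference lay between -0.67 and -0.63.

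The other peroxisomal genes differed less. Hsd17b4, the D-bifunctional enzyme that acts in parallel to Ehhadh on very long-chain and branched fatty acids, read 8.73 and 8.68 in WT and 8.45 and 8.57 in KO (-0.19 ± 0.19), without overlap. The peroxisomal thiolase Acaa1b read 8.52 and 8.33 in WT and 8.14 and 8.43 in KO, with overlap, and its difference of -0.14 became 0.01 without KO pool 1. Acaa1a, its close relative, also overlapped (-0.18 ± 0.28), and probe sets of such related genes may measure both. The carnitine octanoyltransferase Crot (0.02 ± 0.19) and the peroxisome division factor Pex11a (-0.04 ± 0.19) overlapped between groups. The median over the 6 peroxisomal genes was -0.16, and it was -0.04 without KO pool 1.

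Ketone body synthesis was represented by Bdh1, the mitochondrial enzyme that reduces acetoacetate to beta-hydroxybutyrate. It read 6.38 and 6.45 in WT and 6.46 and 6.53 in KO. The KO pools lay just above the WT pools, and the difference of 0.08 ± 0.19 had a 95% interval from -0.39 to 0.55.

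Regulators and their targets had a median of -0.32 over 6 genes, with 5 below 0. Ppara, which encodes PPAR-alpha, read 6.56 and 6.72 in WT and 6.14 and 6.35 in KO. Both KO pools were below both WT pools, at 76.1% of WT, but the gene did not pass (-0.39 ± 0.20; limma, adjusted p = 0.585, or 0.272 in the trended fit). Its coactivator Ppargc1a read 4.48 and 4.25 in WT and 4.01 and 4.16 in KO (-0.28 ± 0.20), also without overlap. Creb3l3, a membrane-bound transcription factor of hepatocytes that acts together with PPAR-alpha in fasting, had KO pools on either side of the WT pools. It read 6.75 and 6.83 in WT, 6.96 in KO pool 1 and 6.45 in KO pool 2, and its difference of -0.09 was 0.17 without KO pool 2.

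Among the targets, both KO pools were below WT for Pdk4 and Angptl4 and above it for Vnn1. Pdk4, the kinase that blocks pyruvate dehydrogenase and spares glucose, read 4.53 and 4.47 in WT and 4.20 and 3.96 in KO (-0.42 ± 0.20; limma, adjusted p = 0.565). Without KO pool 2 its difference was -0.30. Angptl4, a secreted inhibitor of lipoprotein lipase, read 6.29 and 6.16 in WT and 5.90 and 5.82 in KO (-0.37 ± 0.19), again without overlap. Vnn1, the pantetheinase that releases the precursor of coenzyme A, read 7.61 and 7.54 in WT and 7.69 and 7.64 in KO (0.09 ± 0.19).

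**Figure D4:**
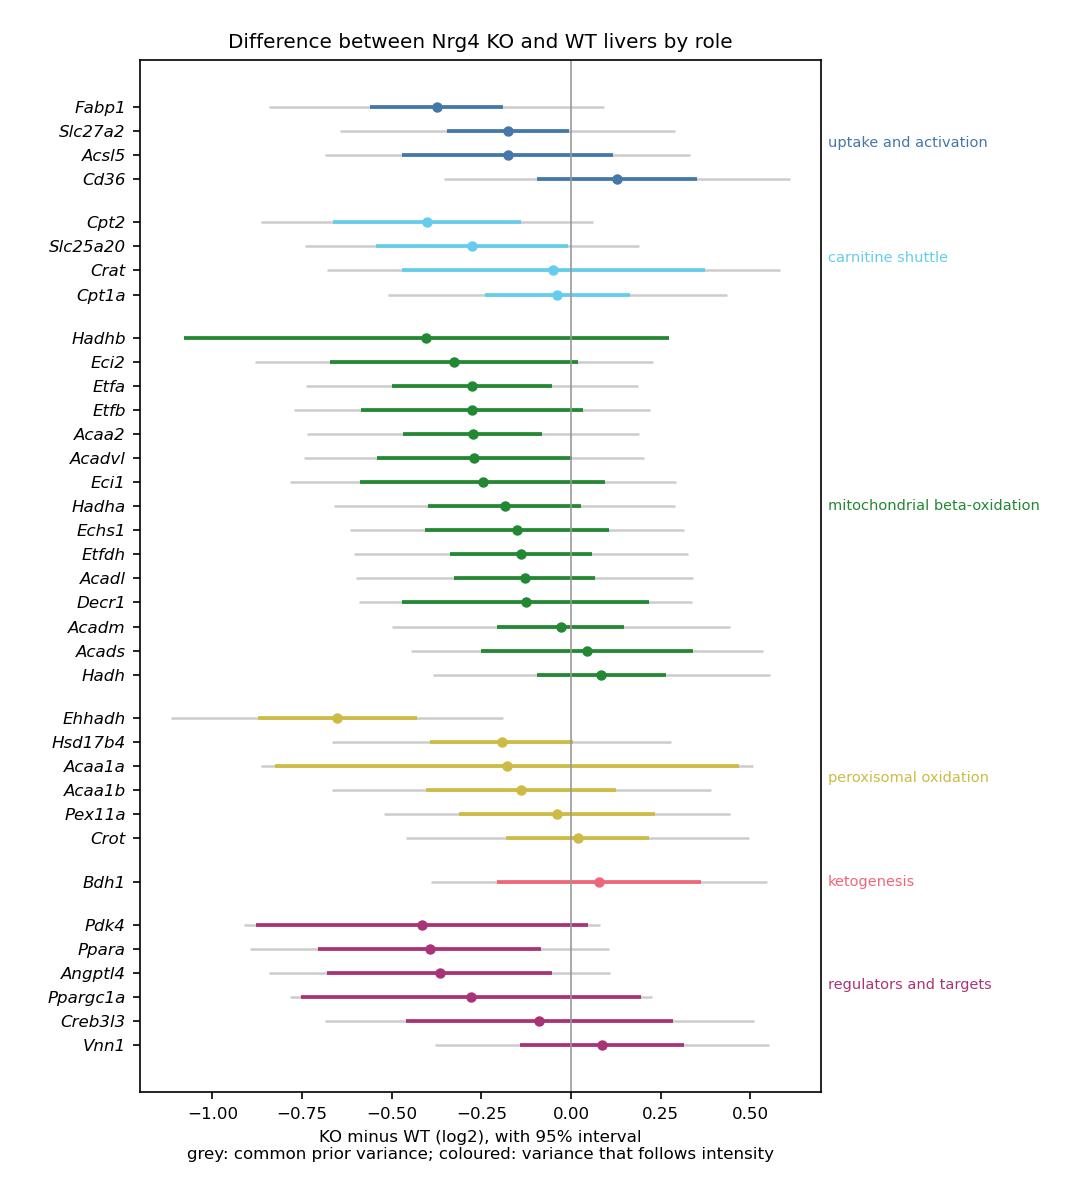
KO minus WT difference of each gene (horizontal axis, log2) by role, with 95% intervals. Grey intervals use limma's common prior variance and coloured ones the trended fit. The interval of Ehhadh lies below 0 in both, at -1.11 to -0.19 and -0.87 to -0.43.

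The precision of the arrays bounds these statements. The half-width of the 95% interval was 0.47 at the median gene of the 36 with the common prior variance and 0.27 in the trended fit. With the common prior variance the interval of every member but Ehhadh included 0, and the width differed from gene to gene in the trended fit.

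Other genes of the pathway and of related processes were read from 7 lists of 120 genes, of which 107 were measured and 103 tested. Of the 103, 71 were below 0 (68.9%) and 32 above, with a median of -0.14, and none passed limma over all genes. Below 0 were 48.4% of all genes tested and 66.4% of those with a mean of 5 or more, and the 103 include dimmer genes. The counts per list below have the same background shares. The trended fit called 7, against 1.09% of all genes tested in both directions. Of these, 6 were lower (Acot1, Lpin1, Slc22a5, Cyp4a14, Retsat and Hacl1) and 1 was higher (Aqp7). All values below are KO minus WT differences on the log2 scale with their SE from the common prior variance.

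In the list of other carnitine genes 4 of 5 tested were below 0 (median -0.30), and the lowest was Slc22a5. Slc22a5, the plasma membrane transporter that takes carnitine into the cell, read 5.54 and 5.43 in WT and 4.20 and 3.98 in KO. The groups were far apart beside the spread of the pools (-1.39 ± 0.20; limma, adjusted p = 0.181, or 0.011 in the trended fit), and the KO level was 38.2% of WT. Aldh9a1, an aldehyde dehydrogenase of carnitine synthesis, differed by -0.41 ± 0.20, and Cpt1c, a relative of Cpt1a, by 0.28.

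In the other mitochondrial oxidation list 13 of 18 genes were below 0 (median -0.24). That list also holds enzymes of amino acid and propionate breakdown, so its median does not describe fatty acid oxidation alone. The branched short-chain dehydrogenase Acadsb, an enzyme of amino acid breakdown, differed by -0.57 ± 0.20. The coenzyme A diphosphatase Nudt7, a peroxisomal enzyme placed in this list, differed by -0.48 ± 0.21. In the other peroxisomal list 13 of 16 were below 0 (median -0.17). Hacl1, the lyase of peroxisomal alpha-oxidation, read 7.19 and 7.11 in WT and 6.25 and 6.35 in KO (-0.85 ± 0.19; limma, adjusted p = 0.297, or 0.0137 in the trended fit). Pex5, the receptor that imports peroxisomal enzymes, differed by -0.84 ± 0.23. Among other genes of uptake, binding and activation 10 of 14 were below 0 (median -0.08), with the medium-chain acyl-CoA synthetase Acsm1 at -0.56 ± 0.21 and the fatty acid-binding protein Fabp4, which macrophages and adipocytes express, at 0.74 ± 0.26.

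The 7 measured ketone body genes had a median of 0.04, with 3 below 0. Oxct1, which starts the use of ketone bodies and which hepatocytes are known to lack, read 2.31 and 2.80 in WT and 3.74 and 3.56 in KO (1.10 ± 0.24; limma, adjusted p = 0.297). Bdh2, a cytosolic dehydrogenase, differed by -0.77 ± 0.40, and its WT pools were themselves apart at 2.42 and 1.30. Acat1, the mitochondrial thiolase of ketone body synthesis, differed by 0.04 ± 0.20.

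Among 25 other regulators 16 were below 0 (median -0.10). Lpin1, a phosphatidate phosphatase that also acts as a coactivator of PPAR-alpha, read 6.87 and 7.16 in WT and 5.37 and 5.54 in KO (-1.56 ± 0.21; limma, adjusted p = 0.181). Klb, the co-receptor of the hormone Fgf21, differed by -0.65 ± 0.21. Fgf21, a PPAR-alpha target secreted in fasting, read 4.07 and 2.20 in WT and 2.86 and 2.98 in KO, so its KO pools lay inside the range of the WT pools.

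Other PPAR-alpha targets spread widely around a median of -0.06, with 12 of 18 below 0. The acyl-CoA thioesterase Acot1 read 5.61 and 5.18 in WT and 3.01 and 1.91 in KO. The fatty acid omega-hydroxylase Cyp4a14 read 8.67 and 8.35 in WT and 7.04 and 7.46 in KO, and Retsat, a retinol saturase, read 8.29 and 8.26 in WT and 7.05 and 7.37 in KO. Acot2, a mitochondrial relative of Acot1, differed by -0.06 ± 0.20. On the other side stood Aqp7, a glycerol channel also known from adipocytes, at 2.29 and 3.28 in WT and 4.52 and 4.46 in KO (1.71 ± 0.35; limma, adjusted p = 0.271, or 0.0437 in the trended fit), and the lipid droplet protein Cidec at 0.67 ± 0.23. Of 6 tested adipocyte markers 4 were lower in KO and 2 higher, Plin1 at 0.16 and Pparg at 0.23. Adipoq had the lowest difference of that list and was dim, at 1.48 and 1.79 in WT and 0.93 and 0.31 in KO (-1.01 ± 0.28). A part of adipocytes in the differences of Aqp7 and Cidec was not tested.

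**Figure D5:**
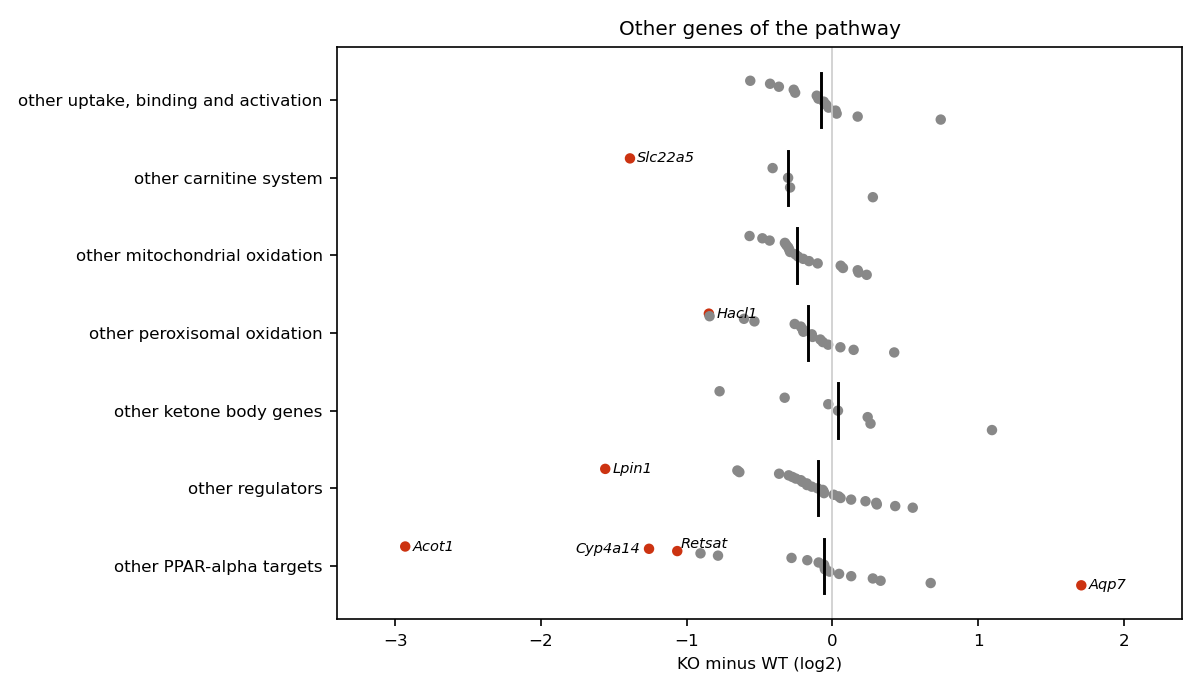
KO minus WT difference (horizontal axis, log2) of 103 tested genes in 7 lists of other genes of the pathway and of related processes. Each point is a gene, the black bar is the list's median, and red named points are the 7 genes past an adjusted p of 0.05 in the trended limma fit, from Acot1 at -2.93 to Aqp7 at 1.71.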

How the data were processed

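Per the submitters' processing notes, the authors used oligo, RMA and limma; the sources used here give no version, build or annotation for them. The deposited values are log2 expression per probe set, from -1.12 to 11.9, processed with RMA per the same notes. Array medians still differed, from 0.52 in WT pool 1 to 0.64 in KO pool 1. Of 41345 probe sets, 23521 had 1 gene symbol, 1814 several and 16010 none. Per gene the probe set with the highest mean was kept. A gene was tested where its mean reached 0.54, the median over probe sets, which left 12458 genes.

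The genotypes were compared with the lmFit and eBayes functions of limma (version 3.58.1, R 4.3.3), without covariates ( 2 residual degrees of freedom and 3.67 from the prior), with Benjamini-Hochberg adjustment over all genes tested. Tested on simulated data of 12458 genes, this recovered 3.80% of simulated log2 differences of 1 and 76.0% of those of 2. It made 8.5 false calls per simulation on average. Each simulation held many changed genes, by up to 4, which eases the adjusted threshold. In the real fit 6 genes passed and Acot1 at -2.93 did not, so these shares may be too high for the real data. Alternatives were the trended fit, no filter on dim genes, other normalizations, the mean of a gene's probe sets, the pool number as a block and each pool left out. The number of arrays limits the precision. No scan date was used here, so no batch was tested. The members, lists and tests were chosen with earlier results of these data known. Values in every pool are given for 8 central genes, the 3 members of each role with the smallest p and the 4 members with the largest difference each way. Of each other list the 2 genes with the smallest p are named, and further names were chosen after their values were seen; 3 genes of the rule were not analysed here. Protein identity of related members was planned and not run, since no protein sequences were used here.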

Additional observations from a re-analysis of the deposited data

How the results depend on the processing

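Of 36 members, 27 kept their sign under every alternative, and none but Ehhadh passed the threshold under any. In the trended fit 136 genes passed instead of 6, among them 1 member (Ehhadh) and 7 other pathway genes, and 9 members had an unadjusted p under 0.05 instead of 1. Without any 1 pool no gene passed, and 0 or 1 member had an unadjusted p under 0.05. Quantile normalization moved the median over members to -0.12, that of beta-oxidation to -0.12, of regulators and targets to -0.27 and of Bdh1 to 0.17; centring arrays on their medians moved the first 3 to -0.22, -0.23 and -0.37. Without 1 pool these medians lay between -0.23 and -0.16 over all members, -0.20 and -0.14 for beta-oxidation, -0.36 and -0.23 for regulators and targets, -0.25 and -0.11 for uptake and activation, -0.31 and -0.11 for the carnitine shuttle and -0.263 and -0.0404 for peroxisomal genes. Signs turned with quantile normalization for Cpt1a (0.0301), Crat (0.0303), Acadm (0.0185) and Pex11a (0.0334), with centring for Acads (-0.0021) and Crot (-0.0287), and with the mean of probe sets for Crat (0.39). They also turned without 1 pool for Cpt1a (-0.11 to 0.0286), Crat (-0.33 to 0.23), Acadm (-0.0816 to 0.0248), Acads (-0.0559 to 0.15), Acaa1a (-0.51 to 0.15), Acaa1b (-0.28 to 0.00719), Crot (-0.069 to 0.11), Pex11a (-0.13 to 0.0568) and Creb3l3 (-0.34 to 0.17). For Crat the mean of probe sets took in a second probe set near the table median, with a mean of 0.57 and a difference of 0.83. The cause of the other turns was not tested. The pool numbers do not pair the pools by the labels, and pool 1 minus pool 2 in WT and in KO correlated at -0.04 over genes. With the pool number as a block 2 genes passed instead of 6 and no member. Depth is not defined for arrays, and probe sets near the table median, such as that of Hadhb, limit what can be seen.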
